A study of Mus musculus with 20 samples.

Results

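This report is on 10 genes of the NF-κB pathway in transgenic mouse models of a leukemia-like disease of B cells. They are the subunit genes *Nfkb1*, *Nfkb2*, *Rel* and *Relb*, the inhibitor genes *Nfkbia*, *Nfkbie*, *Nfkbid* and *Bcl3*, and the feedback genes *Tnfaip3* and *Traf1*. They were taken by name, 10 of the 31053 genes in the deposited tables, and all 10 passed the filter on low counts in every comparison. The choice of these genes, and of the gene lists used further on, was made with earlier results of these data known. Their comparisons with all genes are therefore descriptions and not independent evidence. Single-cell RNA-sequencing had been done on 20 libraries from 13 mice of 3 genotypes. Spleens came from 5 mice named Eµ-PRMT5, 4 named Eµ-TCL1 and 4 named Eµ-PRMT5/TCL1, and lymph nodes from 3 of the Eµ-TCL1 and all 4 of the Eµ-PRMT5/TCL1 mice. Each lymph node was a sub-mandibular node of a mouse whose spleen was also measured. Eµ-PRMT5 mice carry human PRMT5, an arginine methyltransferase, Eµ-TCL1 mice carry human TCL1, a kinase co-activator that drives a disease like chronic lymphocytic leukemia, and Eµ-PRMT5/TCL1 mice carry both. The PRMT5 cDNA is driven by an immunoglobulin heavy chain promoter and the Eµ enhancer, so that it acts in B cells. The study made double transgenic mice from founder line L25 and reports further crosses from its other founder lines. The label of Eµ-PRMT5 spleen 3 carries the name of a founder, E4474. The founder line of the other Eµ-PRMT5 spleens and of the double transgenic mice measured here was not stated in the sources used. The deposited mouse gene table held no separate row for the transgene. Mice had been taken when they met removal criteria, and age per library was not given. The labels give the strain as C57BL/6N and the study's methods give C57BL/6J. No wild-type library was analysed here, so that the Eµ-PRMT5 and Eµ-PRMT5/TCL1 mice were set against Eµ-TCL1 mice and against each other.

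NF-κB is a family of dimeric transcription factors that are held inactive by inhibitor proteins of the IκB family. Signals from antigen, Toll-like and TNF-family receptors lead to destruction of the inhibitors, or to processing of the *Nfkb1* and *Nfkb2* precursors, and freed dimers enter the nucleus. Many of the genes they activate encode the pathway's own subunits, inhibitors and deubiquitinases, which is why transcripts of these genes are often read as a record of recent signaling. In B cells the pathway is known for its part in survival and in the response to antigen, CD40 and BAFF.

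The promoters of the members are shown because feedback of this kind runs through κB sites, the sequences that NF-κB dimers bind. Windows of 250 bases before and 50 bases after a RefSeq transcription start (GRCm38.p6) were searched on both strands for the 10-base κB consensus, with overlapping matches counted apart. A window was found for 8 of the 10 members, and 7 of these 8 held a match in at least 1 of their windows (9 of 13 windows), against 9.55% of 27025 genes and 8.46% of 32851 windows. The members have more windows per gene than the average, and a match is a match of letters only. Promoters of an inhibitor, a subunit gene of each activation branch and the deubiquitinase gene follow, 250 bases up to the start, 5′ to 3′ on the gene's strand, with the matches in capitals.
*Nfkbia* (minus strand, chr12:55492648-55492897): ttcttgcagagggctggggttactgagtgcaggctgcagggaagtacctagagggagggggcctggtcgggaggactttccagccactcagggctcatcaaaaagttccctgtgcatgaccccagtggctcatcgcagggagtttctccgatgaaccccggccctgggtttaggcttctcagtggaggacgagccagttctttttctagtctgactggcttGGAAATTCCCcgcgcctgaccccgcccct
*Rel* (minus strand, chr11:23770970-23771219): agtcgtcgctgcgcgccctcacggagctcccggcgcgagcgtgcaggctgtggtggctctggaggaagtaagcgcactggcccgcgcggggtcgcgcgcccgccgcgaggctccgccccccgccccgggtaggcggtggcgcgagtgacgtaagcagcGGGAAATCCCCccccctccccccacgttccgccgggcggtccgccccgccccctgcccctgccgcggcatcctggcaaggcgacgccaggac
*Nfkb2* (plus strand, first of 3 windows, chr19:46304487-46304736): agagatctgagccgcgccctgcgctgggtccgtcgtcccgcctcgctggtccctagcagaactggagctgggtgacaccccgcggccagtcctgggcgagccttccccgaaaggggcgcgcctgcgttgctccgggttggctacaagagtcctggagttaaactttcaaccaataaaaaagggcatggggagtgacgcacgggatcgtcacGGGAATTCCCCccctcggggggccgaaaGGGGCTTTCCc
*Tnfaip3* (minus strand, first of 2 windows, chr10:19015411-19015660): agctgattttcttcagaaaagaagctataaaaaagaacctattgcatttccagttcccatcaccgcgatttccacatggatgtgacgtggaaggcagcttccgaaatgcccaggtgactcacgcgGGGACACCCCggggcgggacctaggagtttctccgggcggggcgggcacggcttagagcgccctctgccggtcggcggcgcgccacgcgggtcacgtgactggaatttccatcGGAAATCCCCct
In *Nfkbia* the match lay 29 to 20 bases before the start, and in *Rel* a match on both strands and a match overlapping it lay 92 to 82 bases before it. *Nfkb2* held overlapping matches 39 to 29 bases and 1 more match 11 to 2 bases before it. *Tnfaip3* held 1 match 125 to 116 bases before the start and 1 match 12 to 3 bases before it. In the other members *Nfkbie* held GGGGGATTCC, *Nfkbid* held GGGACTTCCC and GGAATTCCCC, and *Bcl3* held GGGAAGTCCC from 3 to 12 bases after its start. *Traf1* held none in its window.

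Levels were read in B cells (at least 3 UMIs, or unique transcript molecules, of *Cd79a* and *Cd79b*, none of *Cd3d*, *Cd3e* and *Cd3g*, and fewer than 20 of *Jchain*), T cells and myeloid cells. UMIs were summed over the cells of a class in each library and given as counts per 1000000 UMIs of that class (CPM). Of 86929 cells kept, 31595 were B cells, 31128 T cells and 5811 myeloid cells, and libraries held 196 to 5336 B cells, 57 to 4839 T cells and 7 to 1256 myeloid cells. In no class were 4.08% (Eµ-TCL1 spleen 2) to 48.1% (Eµ-PRMT5 spleen 4) of a library's cells. They include 12211 cells with at least 3 UMIs of *Cd79a* and *Cd79b* that also held CD3 UMIs. Eµ-PRMT5 spleen 4 had 1864 such cells beside 823 B cells. B cells made up 7.76% (Eµ-PRMT5 spleen 5) to 88.1% (Eµ-PRMT5/TCL1 spleen 1) of the cells kept in spleens. In lymph nodes they made up 4.99% (Eµ-TCL1 node 1) to 61.4% (Eµ-PRMT5/TCL1 node 2). The B-cell class has no limit on *Cd5*, which marks the leukemia-like cells in the study. Leukemia-like and other B cells were therefore not told apart. Library totals lay between 9348094 and 72440894 UMIs. Over the 13 spleens, 4 further B-cell markers (*Ms4a1*, *Pax5*, *Cd22*, *Ebf1*) summed to 110 to 1580 CPM in B cells and at most 15.5 CPM in T cells. The 6 T-cell markers checked summed to 1526 to 3152 CPM in T cells and 12.6 to 185 CPM in B cells. Myeloid cells were rich in neutrophil-lineage transcripts (*Mpo*, *Elane* and 4 others, 3050 to 33794 CPM), which also reached 829 CPM in B cells and 1606 CPM in T cells, and T cells held 336 to 1697 CPM of 3 NK-cell markers.

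Eµ-PRMT5 spleen 4 stood apart. Its B cells held 110 CPM of the B-cell markers, where those of the other 12 spleens held 587 to 1580 CPM, and a median of 16741 UMIs per cell, where the others held 4293.5 to 9934. Leaving it out kept all 22 called differences between cell classes and moved none by more than 0.29 on the log2 scale, and its effect on the genotype comparisons is given beside them. By *Xist* against *Ddx3y*, 4 of 5 Eµ-PRMT5, 1 of 4 Eµ-TCL1 and 3 of 4 Eµ-PRMT5/TCL1 spleens were of the *Xist*-high kind, so that sex and genotype were unevenly mixed. Libraries shared about as many cell barcodes as random draws give (4870 over 190 pairs, 4831.6 expected). Doublet removal took out 1 to 323 barcodes per library. It marked under 0.5% in 16 libraries, 5 of which held over 5000 called barcodes, so that it cannot be taken to have worked there.

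Across the 13 spleens, B cells held more *Rel*, *Nfkbid*, *Nfkbie* and *Bcl3* than T cells, and T cells more *Tnfaip3*, *Traf1*, *Nfkb2*, *Nfkb1* and *Relb*. With the library as a block in edgeR's quasi-likelihood test, 9 of the 10 members passed an adjusted p of 0.05 (Benjamini-Hochberg over 11188 genes), 4 higher and 5 lower in B cells. That is a high background to read them against, since 56.9% of all genes passed (27.9% higher, 29.0% lower), and the median log2 difference was -0.19 over members and -0.02 over all genes. Between B and myeloid cells 6 members passed, all higher in B cells (4 to 8 over the alternatives, the most without the filter on low counts), where 70.0% of all genes passed (36.1% higher, 33.9% lower; medians 0.43 and 0.05). Between T and myeloid cells 7 passed, 5 higher and 2 lower in T cells, where 70.2% of all genes passed (35.6% higher, 34.5% lower; medians 0.41 and 0.03). Without Eµ-PRMT5 spleen 4 the numbers of members called were 9, 6 and 7. Barcodes of 10 to 100 UMIs, droplets that mostly caught free RNA rather than a cell, show what the free RNA of a library is made of. How much of it each cell took up was not measured, so that a class level at or under theirs cannot be told from free RNA.

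**Figure D1:**
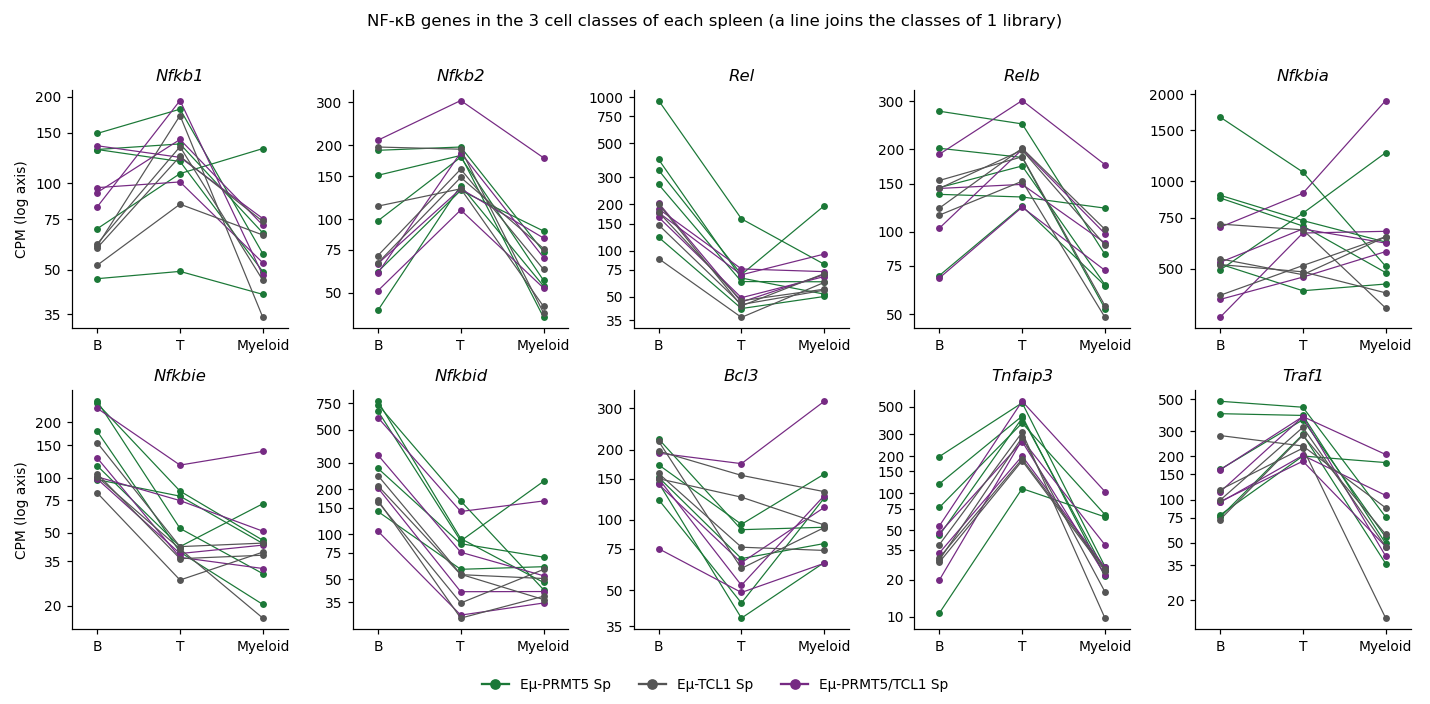
CPM of the 10 NF-κB genes (log axis) in B cells, T cells and myeloid cells of the 13 spleens, with a line joining the classes of 1 library. *Rel* lies between 88.5 and 953 CPM in B cells and between 36.6 and 161 CPM in T cells, and *Tnfaip3* between 109 and 555 CPM in T cells and between 10.7 and 198 CPM in B cells.

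*Rel*, which encodes c-Rel, the subunit of the canonical branch most tied to lymphocyte activation, had a lowest, median and highest level of 88.5, 187 and 953 CPM in B cells, 36.6, 49.2 and 161 CPM in T cells, and 50.1, 67.6 and 196 CPM in myeloid cells. It was higher in B cells than in both other classes of the same mouse in 13 of 13 spleens. The log2 difference was 1.96 ± 0.15 (SE) against T cells (edgeR adjusted p = 6.55e-12) and 1.38 ± 0.15 against myeloid cells (adjusted p = 4.65e-09). Barcodes of 10 to 100 UMIs held 92.6, 141 and 386 CPM, above the T-cell level in all 13 spleens and above the myeloid level in 12 of 13, so that *Rel* in those classes cannot be told from free RNA. B cells were above these barcodes in 10 of 13 spleens. Its difference between T and myeloid cells was -0.58 ± 0.15 (adjusted p = 0.00133), a call lost without the library block (-0.46, adjusted p = 0.121).

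*Nfkb1*, the precursor of p50, ran the other way, at 46.5, 82.7 and 149 CPM in B cells and 49.3, 124 and 194 CPM in T cells (log2 difference -0.54 ± 0.16, adjusted p = 0.00526), with 34.1, 56.8 and 132 CPM in myeloid cells. The barcodes of 10 to 100 UMIs held 46.7, 83.3 and 125 CPM of *Nfkb1*, and B cells were above them in 7 of 13 spleens and myeloid cells in 2 of 13. *Nfkb2*, the precursor of p52 in the non-canonical branch, was at 42.4, 71.0 and 210 CPM in B cells, 109, 160 and 305 CPM in T cells and 39.7, 62.3 and 178 CPM in myeloid cells. It was lower in B than T cells in 12 of 13 spleens (log2 difference -0.76 ± 0.16, adjusted p = 0.000226). The barcodes of 10 to 100 UMIs held 45.5, 82.5 and 154 CPM of *Nfkb2*, and B cells were above them in 6 of 13 spleens and myeloid cells in 4 of 13. *Relb*, the partner of p52, was at 67.7, 144 and 276 CPM in B cells, 123, 187 and 302 CPM in T cells and 48.6, 82.6 and 176 CPM in myeloid cells. Its difference between B and T cells was small (-0.36 ± 0.12, adjusted p = 0.0142) and was not called without the library block (-0.35, adjusted p = 0.064) or the filter on low counts (-0.31, adjusted p = 0.0513). Against myeloid cells, T cells held more of all 3 genes (*Nfkb2* 1.04 ± 0.17, adjusted p = 3.11e-06, *Relb* 0.87 ± 0.13, adjusted p = 6.68e-07, *Nfkb1* 0.81 ± 0.17, adjusted p = 9.51e-05) and B cells more *Relb* (0.52 ± 0.13, adjusted p = 0.000697).

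Among the inhibitors, *Nfkbia*, which encodes IκBα, the inhibitor resynthesized fastest after a signal, did not pass between any of the classes, at 340, 526 and 1667 CPM in B cells, 420, 681 and 1077 CPM in T cells and 366, 613 and 1900 CPM in myeloid cells. Its level in barcodes of 10 to 100 UMIs was 399, 547 and 1076 CPM, and B cells were above this level in 7 of 13 spleens. *Nfkbie* and *Nfkbid* were the inhibitor genes that set B cells apart. *Nfkbie* (IκBε) was at 82.5, 116 and 261 CPM in B cells, 27.6, 42.0 and 117 CPM in T cells and 17.1, 42.8 and 139 CPM in myeloid cells, with log2 differences of 1.50 ± 0.16 (adjusted p = 3.7e-09) and 1.51 ± 0.16 (adjusted p = 3.53e-09). *Nfkbid* (IκBNS, a nuclear regulator needed for some B-cell subsets) was at 105, 247 and 775 CPM in B cells, 27.5, 58.3 and 167 CPM in T cells and 34.7, 50.6 and 226 CPM in myeloid cells, with log2 differences of 2.23 ± 0.18 (adjusted p = 1.45e-11) and 2.02 ± 0.18 (adjusted p = 9.04e-11). Both genes were higher in B cells than in either other class in 13 of 13 spleens, and in T and myeloid cells both exceeded the barcodes of 10 to 100 UMIs in 1 of 13 spleens each. *Bcl3*, a nuclear IκB protein that binds p50 and p52, was at 75.2, 152 and 222 CPM in B cells, 37.9, 68.2 and 174 CPM in T cells, and 65.1, 95 and 322.5 CPM in myeloid cells. The barcodes of 10 to 100 UMIs held 38, 95.1 and 124 CPM, and B cells were above them in 13 of 13 spleens, myeloid cells in 9 and T cells in 4. B cells held more than T cells in all 13 spleens (1.06 ± 0.14, adjusted p = 3.81e-07) and T cells less than myeloid cells (-0.72 ± 0.15, adjusted p = 8.3e-05). The difference between B and myeloid cells (0.34 ± 0.15, adjusted p = 0.0372) was not called without the library block (0.28, adjusted p = 0.252) or without myeloid cells rich in *S100a8* and *S100a9* (0.27, adjusted p = 0.11).

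The feedback genes were highest in T cells. *Tnfaip3*, which encodes the ubiquitin-editing enzyme A20 that shuts off signaling upstream of the inhibitors, was at 109, 283 and 555 CPM in T cells, 10.7, 38.3 and 198 CPM in B cells and 9.75, 24.4 and 103 CPM in myeloid cells. B cells held 6.39-fold less than T cells (log2 -2.67 ± 0.28, adjusted p = 4.29e-09), and T cells more than myeloid cells (2.85 ± 0.30, adjusted p = 2.39e-09). The B-cell level was under that of the barcodes of 10 to 100 UMIs (42.9, 113 and 363 CPM) in 13 of 13 spleens, and the myeloid level in 11 of 13, and every *Tnfaip3* value in those classes below carries that limit. *Traf1*, an adaptor of TNF-family receptors, was at 185, 284 and 439 CPM in T cells, 72.5, 113 and 483 CPM in B cells and 15, 54.7 and 206 CPM in myeloid cells. B cells were above the barcodes of 10 to 100 UMIs (74.6, 148 and 281 CPM) in 6 of 13 spleens, and myeloid cells in 3 of 13. Its log2 difference was -0.98 ± 0.25 in B against T cells (adjusted p = 0.00173) and 1.92 ± 0.27 in T against myeloid cells (adjusted p = 4.14e-07). In B against myeloid cells it was 0.94 ± 0.27 (adjusted p = 0.00274), a call lost without the *S100a8* and *S100a9*-rich cells (0.55, adjusted p = 0.0599).

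The genes around the members were counted in the same comparison of B with T cells, against the 56.9% of all genes that passed. Of 9 receptor genes tested, 6 were higher and 2 lower in B than in T cells, led by *Tnfrsf13c*, the BAFF receptor (log2 difference 7.09), *Tlr9* (5.61) and *Tnfrsf13b* (5.12), with *Tnfrsf1b*, a TNF receptor, lower (-1.97). Of 15 signaling genes 2 were higher and 4 lower, and of 8 further subunit and inhibitor genes none was higher and 3 were lower (*Tnip1* -0.90, *N4bp1* -0.81, *Cyld* -0.38). Of 14 target genes 2 were higher and 4 lower, with *Cd83* (5.21) and *Ebi3* (3.88) up and *Ier3* (-3.56) and *Bcl2l1* (-2.85) down.

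The first genotype question was how the members' levels in splenic B cells of Eµ-PRMT5 mice compared with those of Eµ-TCL1 mice. *Rel*, *Nfkb1*, *Nfkbid* and *Tnfaip3* lay higher in most Eµ-PRMT5 spleens at an unadjusted p under 0.05, but none of the 10 members passed after adjustment with edgeR, where 3 of 11595 genes (0.0259%) did. The 4 members at an unadjusted p under 0.05 stand against 16.9% of all genes at that p. The median log2 difference was 0.6 over members and 0.01 over all genes, with 8 members above 0 and 2 below. It was 0.75 without Eµ-PRMT5 spleen 4 and 0.38 without spleen 1. DESeq2 called 1 member, *Rel* (1.31, adjusted p = 0.043), among 647 genes. Without Eµ-PRMT5 spleen 4, edgeR called 1 member, *Tnfaip3* (1.65, adjusted p = 0.0475), among 247 of 11322 genes.

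**Figure D2:**
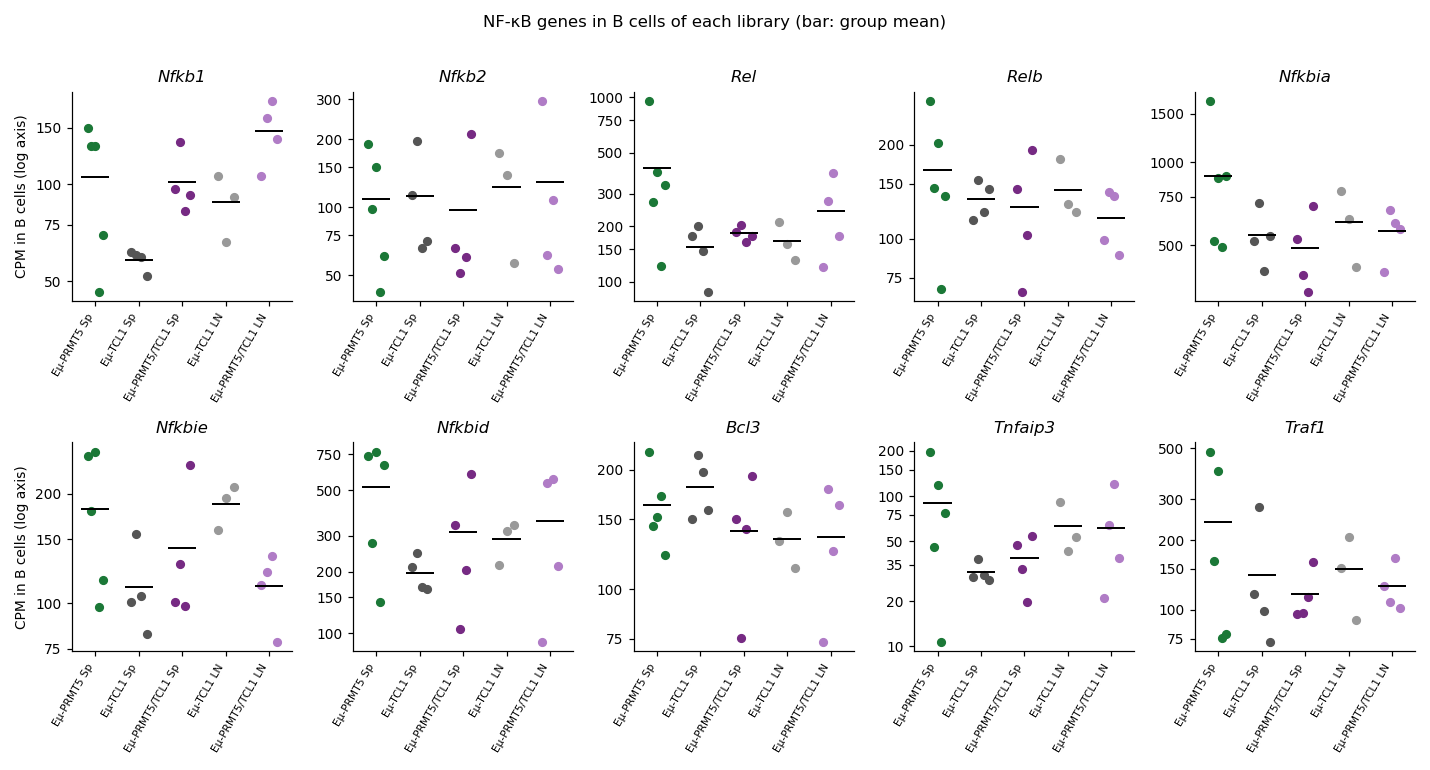
CPM of the 10 NF-κB genes in B cells (log axis) by genotype and tissue, 1 point per library with the group mean as a bar. *Nfkb1* lies between 51.8 and 61.5 CPM in Eµ-TCL1 spleens and between 82.7 and 135 CPM in Eµ-PRMT5/TCL1 spleens, while the Eµ-PRMT5 spleens spread widely for most genes.

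*Rel* in B cells was at 953, 270, 393, 122 and 335 CPM in Eµ-PRMT5 spleens 1 to 5, at 178, 201, 147 and 88.5 CPM in Eµ-TCL1 spleens 1 to 4, and at 187, 204, 165 and 177 CPM in Eµ-PRMT5/TCL1 spleens 1 to 4. All Eµ-PRMT5 spleens except spleen 4 lay above every spleen of the other genotypes. The barcodes of 10 to 100 UMIs held 92.6 to 386 CPM in Eµ-PRMT5, 106 to 185 CPM in Eµ-TCL1 and 107 to 189 CPM in Eµ-PRMT5/TCL1 spleens. The log2 difference of Eµ-PRMT5 against Eµ-TCL1 was 1.29 ± 0.43 (edgeR adjusted p = 0.172), 1.50 without Eµ-PRMT5 spleen 4 (adjusted p = 0.056) and 0.76 without spleen 1 (adjusted p = 0.376).

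*Nfkbid* was at 737, 276, 775, 142 and 667 CPM in Eµ-PRMT5 spleens, 211, 247, 169 and 165 CPM in Eµ-TCL1 spleens, and 339, 105, 204 and 603 CPM in Eµ-PRMT5/TCL1 spleens. In 4 of 5 Eµ-PRMT5 spleens the level was above all Eµ-TCL1 spleens, and the double transgenic spleens fell on both sides. The log2 difference of Eµ-PRMT5 against Eµ-TCL1 was 1.26 ± 0.47 (edgeR adjusted p = 0.207), and 1.47 without Eµ-PRMT5 spleen 4 (adjusted p = 0.0687).

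*Nfkb1* was at 149, 131, 131, 46.5 and 69.4 CPM in Eµ-PRMT5 spleens, 61.5, 60.5, 59.5 and 51.8 CPM in Eµ-TCL1 spleens, and 96.5, 135, 82.7 and 92.8 CPM in Eµ-PRMT5/TCL1 spleens. The Eµ-TCL1 spleens lay close together, and all double transgenic spleens and all Eµ-PRMT5 spleens except spleen 4 were above them. In all 4 Eµ-TCL1 spleens the B-cell level was under that of the barcodes of 10 to 100 UMIs (76.0 to 83.8 CPM), which held 46.7 to 113 CPM in Eµ-PRMT5 and 69.3 to 125 CPM in Eµ-PRMT5/TCL1 spleens. The log2 difference from Eµ-TCL1 was 0.72 ± 0.26 in Eµ-PRMT5 spleens (edgeR adjusted p = 0.201, 0.86 without spleen 4 with adjusted p = 0.059). With *Xist* as a term it was 0.45 (edgeR adjusted p = 0.58). As group means, *Nfkb1* was at 105 ± 44.7 CPM (SD, n = 5), 58.3 ± 4.44 CPM (n = 4) and 102 ± 23 CPM (n = 4), and the SD shows how much wider the Eµ-PRMT5 spleens spread than the Eµ-TCL1 spleens.

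*Tnfaip3* was at 198, 45.6, 119, 10.7 and 76.7 CPM in Eµ-PRMT5 spleens, 28.8, 38.3, 30 and 27.6 CPM in Eµ-TCL1 spleens, and 47.3, 32.8, 19.8 and 54.3 CPM in Eµ-PRMT5/TCL1 spleens. Again spleen 4 was the 1 Eµ-PRMT5 spleen not above the Eµ-TCL1 spleens. The log2 difference was 1.37 ± 0.54 (edgeR adjusted p = 0.227), 0.87 without spleen 1 (adjusted p = 0.511) and 0.91 with UMIs per B cell as a covariate. The barcodes of 10 to 100 UMIs held 42.9 to 363 CPM in the former spleens and 70.0 to 113 CPM in the latter.

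The other members overlapped between these groups. *Nfkbia* was at 1667, 519, 877, 495 and 896 CPM in spleens of Eµ-PRMT5 mice and 517, 713, 405 and 541 CPM in Eµ-TCL1 spleens. *Traf1* was at 483, 162, 396, 75.5 and 78.1 CPM against 117, 279, 99.0 and 72.5 CPM, and *Nfkbie* at 254, 179, 261, 97.5 and 116 CPM against 101, 155, 105 and 82.5 CPM. *Nfkb2*, *Relb* and *Bcl3* ranged over 42.4 to 191, 69.1 to 276 and 122 to 222 CPM in Eµ-PRMT5 spleens and 66.3 to 197, 115 to 154 and 150 to 217 CPM in Eµ-TCL1 spleens. In most members spleens 1 and 3 were the highest Eµ-PRMT5 spleens and spleen 4 the lowest.

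Other measures moved with this comparison. Median UMIs per B cell were 4746.5, 7835.5, 4293.5, 16741 and 7161 in Eµ-PRMT5 spleens 1 to 5 and 5898.5 to 8450.5 in Eµ-TCL1 spleens. A list of 10 immediate early genes (*Fos*, *Jun*, *Egr1* and others), which rise within minutes of a signal and also during tissue dissociation, summed to 1488 to 9241 CPM in Eµ-PRMT5 B cells and 1191 to 1959 CPM in Eµ-TCL1 B cells, with 7 of 10 at an unadjusted p under 0.05, all higher. A list of 5 heat shock genes summed to 2474 to 5094 CPM against 1342 to 1867 CPM, with 5 of 5 higher at that p, which 16.9% of all genes reached. In barcodes of 10 to 100 UMIs the heat shock genes were at 2291 to 3340 CPM against 1666 to 1884 CPM. None of these 15 genes passed after adjustment. With UMIs per B cell as a covariate the log2 differences were 1.12 for *Rel*, 1.08 for *Nfkbid*, 0.67 for *Nfkb1* and 0.91 for *Tnfaip3* (edgeR adjusted p = 0.1 to 0.178), with a median of 0.55 over members. The part of the immediate early and heat shock genes in the difference of the members was not tested. Shifts between B-cell states inside the class and changes of level per cell cannot be told apart in summed counts.

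Around the members, 1 of 5 ligand genes tested was called in Eµ-PRMT5 against Eµ-TCL1 B cells, *Lta*, the gene of lymphotoxin-α, with a log2 difference of 3.32 ± 0.49 (edgeR adjusted p = 0.0443). Of the others, *Tnf* (1.84) and *Tnfsf13b* (2.55), which encodes BAFF, were higher and *Ltb*, the gene of lymphotoxin-β, lower (-1.08) at an unadjusted p under 0.05. *Tnfsf13b* was among the ligand genes called between B and myeloid cells, and the B cells held neutrophil-lineage transcripts. The ligand genes were not set against free RNA, so that their own transcripts cannot be told from RNA of other cells. None of 8 further subunit and inhibitor genes, 15 signaling genes, 9 receptor genes or 14 target genes passed in edgeR. At an unadjusted p under 0.05 the numbers were 2 (*Tnip2* 0.70 and *Nfkbiz* 0.80), 1 (*Myd88* 0.65), 2 in opposite directions, and 4, beside the 16.9% of all genes at that p.

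The second question was what the PRMT5 transgene added to TCL1, by setting spleens of Eµ-PRMT5/TCL1 mice against those of Eµ-TCL1 mice. *Nfkb1* in B cells was the 1 member at an unadjusted p under 0.05, a level 4.58% of all genes reached, with a log2 difference of 0.72 ± 0.27 (edgeR adjusted p = 0.999). No member passed after adjustment, and 0.00862% of all genes did. With *Xist* as a term the difference was 0.48. The median over members was -0.02 and over all genes 0.0, and 5 members lay above and 5 below 0. The levels of this comparison include *Nfkb2* at 65.8, 51.0, 60.2 and 210 CPM in the double transgenic spleens and 113, 197, 66.3 and 71.0 CPM in Eµ-TCL1 spleens, and *Relb* at 144, 67.7, 103 and 192 CPM and 115, 154, 122 and 144 CPM. *Nfkbie* was at 101, 128, 98.3 and 239 CPM in the double transgenic spleens, *Bcl3* at 150, 75.2, 142 and 193 CPM and *Traf1* at 95.6, 96.8, 113 and 161 CPM, each overlapping the Eµ-TCL1 spleens. Double transgenic spleen 4 was the highest of its group for *Nfkb2*, *Relb*, *Nfkbia*, *Nfkbie*, *Nfkbid*, *Bcl3*, *Tnfaip3* and *Traf1*, but not for *Nfkb1* or *Rel*.

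Against Eµ-PRMT5 spleens, which are the same libraries as in the first comparison, Eµ-PRMT5/TCL1 B cells had log2 differences of -1.13 ± 0.43 for *Rel* (edgeR adjusted p = 0.512), -1.20 ± 0.53 for *Tnfaip3* (adjusted p = 0.559) and -0.90 ± 0.32 for *Nfkbia* (adjusted p = 0.503). *Nfkbia* was at 526, 392, 340 and 695 CPM in the double transgenic spleens. No member and none of the 11595 genes passed after adjustment (0%), and 8.77% of all genes were at an unadjusted p under 0.05. The median over members was -0.59, and -0.77 without Eµ-PRMT5 spleen 4, where adjusted p was 0.127 to 0.179 for the 3 genes. Without Eµ-PRMT5 spleen 1 it was -0.42, with -0.59 for *Rel*, -0.70 for *Tnfaip3* and -0.59 for *Nfkbia* (edgeR adjusted p = 0.911 to 0.917). Over all genes the median was -0.04.

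**Figure D3:**
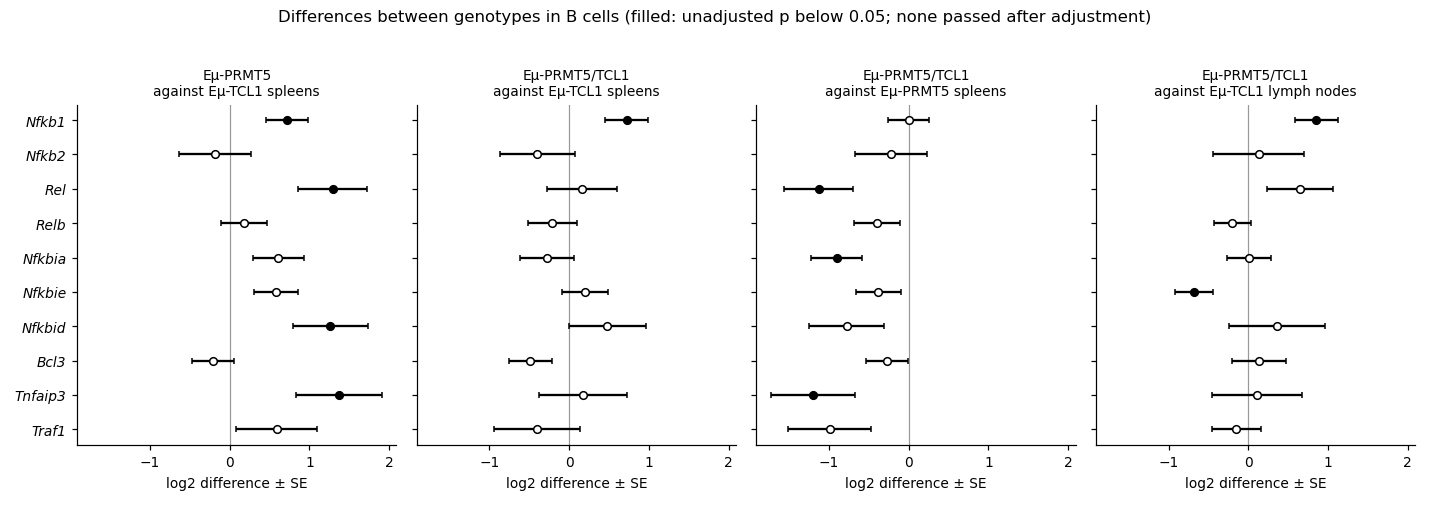
Log2 difference with its SE for each NF-κB gene in B cells in the spleen and lymph node genotype comparisons, filled where the unadjusted p was under 0.05. In Eµ-PRMT5 against Eµ-TCL1 spleens 8 of 10 points lie above 0 with a median of 0.6, and *Nfkb1* is at 0.72 in spleens of Eµ-PRMT5/TCL1 against Eµ-TCL1 mice and 0.85 in lymph nodes. None passed after adjustment.

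In lymph nodes the same contrast of Eµ-PRMT5/TCL1 with Eµ-TCL1 gave *Nfkb1* at 106, 161, 181 and 138 CPM against 106, 66.4 and 91.1 CPM. The lowest double transgenic node was level with the highest Eµ-TCL1 node. The log2 difference was 0.85 ± 0.27 (edgeR adjusted p = 0.655) and 0.58 with *Xist* as a term. *Nfkbie* differed in the other direction, at 112, 122, 135 and 78.4 CPM against 159, 195 and 209 CPM (-0.68 ± 0.24, adjusted p = 0.67). Its levels did not overlap, a separation that was not counted over all genes. No member and no gene passed after adjustment (0% of 10912), and 6.77% of all genes were at an unadjusted p under 0.05, to be set beside 2 of 10 members. The median was 0.12 over members and 0.02 over all genes, and ran from -0.05 (without Eµ-TCL1 node 3) to 0.27 with single nodes left out. Over the other alternatives the median over members ran from -0.27 to 0.16. *Rel* was at 121, 275, 389 and 178 CPM against 210, 160 and 132 CPM, *Nfkbid* at 90.8, 541, 567 and 213 CPM against 216, 316 and 340 CPM, and *Tnfaip3* at 21, 63.9, 121 and 38.9 CPM against 91.6, 43.4 and 53.7 CPM. In these 3 genes the double transgenic nodes spread on both sides of the Eµ-TCL1 nodes. *Nfkb2* was at 294, 61.7, 108 and 53.1 CPM against 174, 139 and 56.6 CPM, and *Relb* at 98.9, 141, 137 and 88.4 CPM against 180, 129 and 122 CPM. *Nfkbia* was at 400, 673, 603 and 574 CPM against 789, 622 and 419 CPM, *Bcl3* at 73.6, 179, 125 and 163 CPM against 132, 156 and 113 CPM, and *Traf1* at 127, 108, 168 and 102 CPM against 151, 207 and 90.1 CPM. These 5 genes overlapped between genotypes as well, and node 1, which held 411 B cells, was the lowest double transgenic node for *Nfkbia* and *Bcl3* and the highest for *Nfkb2*.

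Since 7 mice gave both tissues, spleen and lymph node were also compared within mice. *Nfkb1* in B cells was higher in the lymph node of 7 of 7 mice, a count that was not taken over all genes and so has no background. In Eµ-PRMT5/TCL1 mice 1 to 4, named by spleen, it went from 96.5 to 161, 135 to 138, 82.7 to 181 and 92.8 to 106 CPM, and in the 3 Eµ-TCL1 mice from 61.5 to 106, 60.5 to 66.4 and 51.8 to 91.1 CPM. *Nfkbid* and *Tnfaip3* each rose in 3 of 3 Eµ-TCL1 and 3 of 4 Eµ-PRMT5/TCL1 mice. *Bcl3* rose in 0 of 3 and 2 of 4. For *Nfkb1*, barcodes of 10 to 100 UMIs held 61.7 to 117 CPM in Eµ-TCL1 nodes. In double transgenic nodes they held 106 to 128 CPM. Both ranges overlap the node B-cell levels, so that node levels inside them cannot be told from free RNA. The log2 difference of *Nfkb1* in Eµ-PRMT5/TCL1 mice was 0.63 ± 0.20 (edgeR with mouse as a block, adjusted p = 0.513). *Nfkb1* was the 1 member at an unadjusted p under 0.05 there, which 7.31% of all genes reached, and the median was 0.35 over members (0.09 without mouse 3) and 0.01 over all genes. *Nfkbie* was the 1 such member in Eµ-TCL1 mice, where 5.03% of all genes reached it, going from 101 to 159, 155 to 195 and 82.5 to 209 CPM (0.71 ± 0.31, adjusted p = 0.976, and 0.35 with adjusted p = 1.0 without the last of these mice). In Eµ-PRMT5/TCL1 mice *Nfkbie* went from 101 to 122, 128 to 78.4, 98.3 to 135 and 239 to 112 CPM, up in 2 mice and down in 2. The median in Eµ-TCL1 mice was 0.06 over members (0.05 to 0.28 with single mice left out, the highest without mouse 2) and 0.0 over all genes. No member and no gene passed after adjustment in either genotype (0%), nor in the test of whether the tissue difference itself differed between genotypes (0%), where no member and 1.95% of all genes were at an unadjusted p under 0.05.

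**Figure D4:**
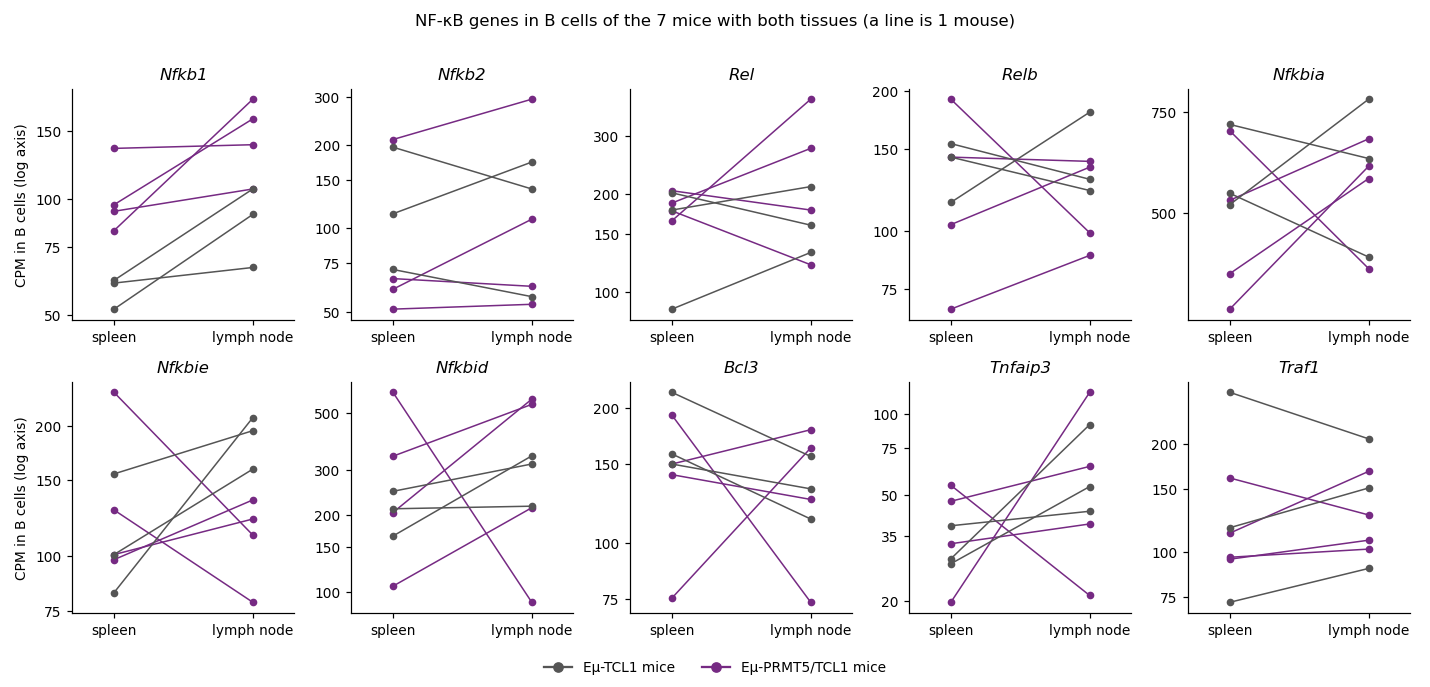
CPM of the 10 NF-κB genes in B cells (log axis) in the spleen and the lymph node of the 7 mice with both tissues, 1 line per mouse. All 7 lines rise for *Nfkb1*, from 51.8 to 135 CPM in spleens to 66.4 to 181 CPM in lymph nodes. Each other gene rises in some mice and falls in others, and such counts were not taken over all genes.

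The PRMT5 transgene was built for expression in B cells, and T cells of the same tissues were compared next. In Eµ-PRMT5 against Eµ-TCL1 spleens 3 members were at an unadjusted p under 0.05, which 6.20% of all genes reached, and none passed after adjustment, where 0.0356% of all genes did. *Nfkbid* was at 167, 86.5, 93.6, 58.3 and 90.2 CPM against 53.7, 54.0, 27.5 and 34.7 CPM (1.24 ± 0.38, edgeR adjusted p = 0.785). *Rel* was at 161, 62.7, 66.1, 41.8 and 69.7 CPM against 47.0, 43.5, 44.4 and 36.6 CPM (0.92 ± 0.30, adjusted p = 0.785), and *Nfkbie* at 84.4, 39.2, 52.8, 79.2 and 42.0 CPM against 40.8, 42.0, 36.1 and 27.6 CPM (0.68 ± 0.30, adjusted p = 0.801). *Nfkbid* was above every Eµ-TCL1 spleen in all 5 Eµ-PRMT5 spleens, and *Rel* in all but spleen 4, which held 57 T cells. These are the members whose T-cell level lay at or under the free-RNA level in nearly all spleens, and B cells held more of each than T cells in 13 of 13 spleens. Without Eµ-PRMT5 spleen 4 the log2 differences were 1.37, 1.06 and 0.57 (edgeR adjusted p = 0.413, 0.403 and 0.573). Without Eµ-PRMT5 spleen 1, whose *Rel* level of 161 CPM stands far above the others, they were 1.01, 0.55 and 0.54 (edgeR adjusted p = 0.999 each).

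*Tnfaip3* in T cells, where it is well above that level, was at 539, 406, 421, 109 and 370 CPM in spleens of Eµ-PRMT5 mice, 283, 311, 189 and 183 CPM in those of Eµ-TCL1 mice and 262, 200, 271 and 555 CPM in those of Eµ-PRMT5/TCL1 mice. In 4 of 5 Eµ-PRMT5 spleens the level was above all Eµ-TCL1 spleens, and in spleen 4 it was below them. The median over members was 0.39 (0.41 without Eµ-PRMT5 spleen 4) and over all genes 0.0. *Jun* (log2 difference 2.08, adjusted p = 0.0234) of the immediate early genes and *Hspa1b* (3.27, adjusted p = 0.0234) of the heat shock genes were called in the same T cells. The immediate early genes summed to 1392 to 2961 CPM against 649 to 1028 CPM, and their part in the members' differences was not tested.

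In spleens of Eµ-PRMT5/TCL1 against Eµ-TCL1 mice, no member was at an unadjusted p under 0.05 in T cells, where 7.12% of all genes were, with a median of 0.11 over members (0.05 without Eµ-PRMT5/TCL1 spleen 4 and 0.27 without Eµ-TCL1 spleen 2), and none passed (0% of all genes). Against Eµ-PRMT5 spleens the same counts were 0 members, 4.87% and 0%, with a median of -0.16 (-0.18 without Eµ-PRMT5 spleen 4, and -0.03 without Eµ-PRMT5/TCL1 spleen 2). In lymph nodes *Rel* in T cells was at 53.8, 68.5, 71.3 and 63.3 CPM in Eµ-PRMT5/TCL1 and 32.9, 36.8 and 47.4 CPM in Eµ-TCL1 mice, without overlap, a separation not counted over all genes. Its log2 difference was 0.89 ± 0.25 (edgeR adjusted p = 0.217). The barcodes of 10 to 100 UMIs held 108 to 186 CPM of *Rel* in the former nodes and 92.7 to 136 CPM in the latter, above every one of these T-cell levels. It was the 1 member at an unadjusted p under 0.05, which 14.1% of all genes reached, and no gene passed after adjustment (0%). The median was 0.36 over members (0.13 without Eµ-TCL1 node 1) and -0.01 over all genes. Between tissues of the same mouse no member was at an unadjusted p under 0.05 in T cells, where 5.03% of all genes were in Eµ-TCL1 mice, 12.0% in Eµ-PRMT5/TCL1 mice and 2.11% in the test of their difference. After adjustment 0%, 0.360% and 0% of all genes passed and no member did.

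In myeloid cells, the median over members was 0.35 in Eµ-PRMT5 and 0.51 in double transgenic spleens, each against Eµ-TCL1 spleens (0.03 and 0.0 over all genes). The first was 0.10 without Eµ-PRMT5 spleen 5 and 0.29 without spleen 4, and the second 0.24 without Eµ-PRMT5/TCL1 spleen 4. Over the 3 alternatives that kept all libraries the first ran from 0.09 to 0.35 and the second from 0.49 to 0.5. *Tnfaip3* was the 1 member at an unadjusted p under 0.05 in either comparison, which 3.17% and 1.50% of all genes reached. It was at 25.5, 23.4, 21.2, 64.3 and 67.1 CPM in spleens of Eµ-PRMT5 mice, 21.8, 25.1, 38.2 and 103 CPM in those of double transgenic mice and 15.9, 9.75, 24.4 and 23.5 CPM in Eµ-TCL1 spleens. Single libraries of high level overlay groups that otherwise overlapped, namely Eµ-PRMT5 spleens 4 and 5 and Eµ-PRMT5/TCL1 spleen 4. The log2 differences were 1.03 ± 0.43 (edgeR adjusted p = 1.0) and 1.08 ± 0.45 (adjusted p = 1.0), and the first was 0.62 (adjusted p = 0.72) without Eµ-PRMT5 spleen 4 and the second 0.58 (adjusted p = 1.0) without Eµ-PRMT5/TCL1 spleen 4. The immediate early genes summed to 1358 to 6024 CPM in Eµ-PRMT5 and 1100 to 1807 CPM in Eµ-TCL1 myeloid cells, with 7 of 10 at an unadjusted p under 0.05, all higher, and their part was not tested. No member and no gene passed after adjustment (0%), nor in the double transgenic against the Eµ-PRMT5 spleens (0%), where no member and 3.43% of all genes were at an unadjusted p under 0.05.

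Between lymph node and spleen of Eµ-PRMT5/TCL1 mice, myeloid cells could be compared in 3 mice. *Tnfaip3* (1.01 ± 0.28, edgeR adjusted p = 0.192), *Traf1* (0.70 ± 0.23, adjusted p = 0.313) and *Nfkbia* (0.49 ± 0.19, adjusted p = 0.445) were at an unadjusted p under 0.05, which 8.83% of all genes reached. Of 8 immediate early genes tested 5 were higher at that p, with *Dusp1* called (1.54, edgeR adjusted p = 0.0116), and of 4 heat shock genes 2 were. The immediate early genes summed to 1651 to 3225 CPM in these nodes and 1031 to 1669 CPM in the spleens of the same mice, and their part was not tested. No member passed after adjustment, and 0.511% of all genes did. The nodes held 43 to 151 myeloid cells, and without cells rich in *S100a8* and *S100a9* the *Tnfaip3* difference was 0.25. Of 3 Eµ-TCL1 nodes, 2 held 7 and 8 myeloid cells, so that the genotype comparison in nodes could not be fitted.

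Over all 18 genotype and tissue comparisons in the 3 classes, 0 of 180 member tests passed after adjustment with edgeR and 21 (11.7%) were at an unadjusted p under 0.05, as were 6.68% of the 193963 tests of all genes. With DESeq2, 1 passed and 25 were at an unadjusted p under 0.05. The DESeq2 tests of all genes were not summarized over these comparisons, so that its counts have no background here. How many of all genes separated groups without overlap was not counted for any comparison, so that such separations of members have no background here.

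The members' levels varied together from mouse to mouse. Over the B cells of the 13 spleens, 44 of 45 pairs of members correlated positively on the log2(CPM + 1) scale, with a median Pearson r of 0.69 and a range of -0.27 to 0.88. Among all pairs of the 5675 genes with a mean of at least 20 CPM, 58.8% were positive with a median of 0.11. An r over 0.5 was reached by 33 of the 45 pairs of members (73.3%) and by 19.3% of all pairs. Without the 2 spleens farthest from the median of the first gene, single pairs moved either way. *Nfkbid* and *Traf1* went from 0.61 to 0.22, and *Nfkb2* and *Rel* from 0.49 to 0.73. The points share their libraries, which differ in depth. Without Eµ-PRMT5 spleen 4, 44 pairs were positive, with a median of 0.69.

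**Figure D5:**
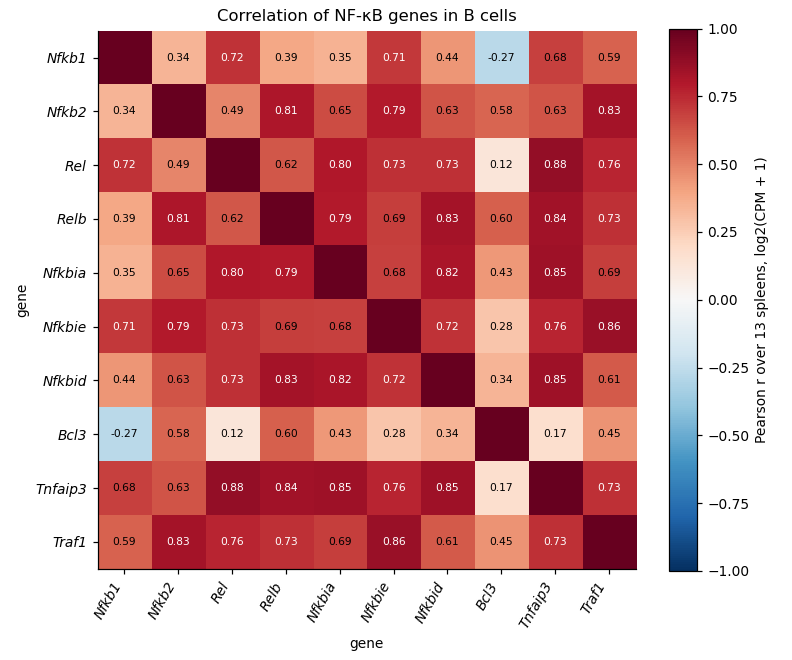
Pearson r of log2(CPM + 1) between the NF-κB genes in B cells over the 13 spleens, as a matrix with a color scale from -1 to 1. Most cells are above 0.5, *Rel* and *Tnfaip3* reach 0.88, and the row of *Bcl3* is pale, with -0.27 against *Nfkb1*.

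By Pearson r, *Rel* and *Tnfaip3* were the closest pair over the 13 spleens (r = 0.88, rho = 0.835), and *Nfkbia* and *Tnfaip3* without Eµ-PRMT5 spleen 4 (0.92, against 0.85 with it and 0.89 for *Rel* and *Tnfaip3*). By Spearman's rho *Nfkbid* and *Tnfaip3* were closest (0.885), and after subtraction of group means *Nfkb2* and *Nfkbie* (r = 0.93). The r of *Rel* and *Tnfaip3* was 0.86 after subtraction of group means and 0.88 without the 2 farthest spleens. *Nfkbie* and *Traf1* (r = 0.86) and *Nfkbid* and *Tnfaip3* (r = 0.85) followed closely. *Bcl3* stood apart from the rest, with r of 0.12 against *Rel*, 0.17 against *Tnfaip3* and -0.27 against *Nfkb1*, and 0.58 against *Nfkb2* and 0.60 against *Relb* (0.69 and 0.76 without that spleen).

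The members' levels were also set against median UMIs per B cell and the summed immediate early and heat shock genes, measures that are not of the pathway. With the median UMIs per B cell, r was negative for all 10 members, from -0.87 for *Relb* and -0.86 for *Tnfaip3* to -0.27 for *Bcl3*. Without Eµ-PRMT5 spleen 4 the range was -0.84 for *Relb* to -0.38 for *Nfkb1* (-0.55 with it). Over the 5675 genes 71.3% were negative, with a median of -0.36 against -0.70 over members. With the summed immediate early genes it was positive for all 10, from 0.89 for *Nfkbid* and 0.84 for *Nfkbia* to 0.36 for *Bcl3*, and 0.39 to 0.89 without that spleen. Over the 5675 genes 66.6% were positive, with a median of 0.27 against 0.76 over members. With the summed heat shock genes r was also positive for all 10, from 0.83 for *Nfkbie* to 0.16 for *Bcl3*. Over the 5675 genes 69.2% were positive, with a median of 0.27 against 0.53 over members. After adjustment over these 30 relations, 6 of 10 members passed by both Pearson's r and Spearman's rho with UMIs (permutation tests). With immediate early genes 5 of 10 passed and with heat shock genes 1 of 10. *Nfkb1*, *Rel*, *Bcl3* and *Traf1* passed with none. How many of the 5675 genes pass the same tests was not computed, so that these counts have no background to be read against. The part of depth, of immediate early genes and of heat shock genes in the members' shared variation was not tested.

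Among 5665 genes searched over the same 13 spleens, the genes most like each member by Pearson r were *Baz1a*, *Dhx38* and *Fam204a* for *Nfkb1* (0.93 to 0.94), *Rad9a*, *Map2k1* and *Nsfl1c* for *Nfkb2* (0.89 to 0.91), *Ccdc174*, *Ddx24* and *N4bp2l2* for *Rel* (0.95 to 0.96), and *Pnpla2*, *Hs3st1* and *Rela* for *Relb* (0.96 to 0.98). They were *Nfkbib*, *Csrnp1* and *Tmem11* for *Nfkbia* (0.90 to 0.92), *Dnaja2*, *Ctdp1* and *Sept7* for *Nfkbie* (0.95), *Prr14*, *Uimc1* and *Nrbf2* for *Nfkbid* (0.94 to 0.95), and *Tspan13*, *Cnep1r1* and *Dtx2* for *Bcl3* (0.81 to 0.84). For *Tnfaip3* they were *Rapgef6*, *Vps16* and *Szrd1* (0.96), and for *Traf1* *Itgav*, *Kctd10* and *Gpat4* (0.88 to 0.90). *Rela*, which encodes the p65 subunit, and *Nfkbib*, which encodes IκBβ, are the genes of the pathway among these 30.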

How the data were processed

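The authors deposited unfiltered matrices of whole-number UMI counts per gene and droplet barcode for 20 libraries (10x Genomics 3′ chemistry). The methods name Cell Ranger 2.0.1 and the matrix headers 3.1.0. Groups and replicate numbers came from the sample descriptions, and mice from the titles. Barcodes at or above the 99th percentile of the 3000 largest divided by 10 were kept if they held 200 genes or more and no more than 10% mitochondrial UMIs, and doublets were removed with Scrublet (scanpy 1.11.5). T cells needed at least 2 CD3 UMIs and *Cd79a* and *Cd79b* under 3. Myeloid cells needed at least 2 UMIs of *Tyrobp* and *Fcer1g* and 5 of *Lyz2*, *Cst3*, *S100a8* and *S100a9*, without CD3 or NK-cell transcripts. Both had *Jchain* under 20 as in B cells. Counts were summed per library and class of at least 20 cells, and tested with edgeR 4.0.16 (quasi-likelihood, TMM, filterByExpr, Benjamini-Hochberg over all genes) within spleens or within lymph nodes. The mouse was a block between tissues and the library between classes. Libraries of a group are different mice. Same-mouse libraries of both tissues correlated (r = 0.27 to 0.67, 7 of 7 pairs over 0.1). Correlation p-values are from 100000 permutations. One listed B-cell marker is not reported here. Members and gene lists were chosen with earlier results of these data known. Scripts were tested on simulated counts. Named members carry a log2 difference where called or at an unadjusted p under 0.05, and 3 genes most like each member and up to 4 called genes per list were named. DESeq2 1.42.0 and other alternatives are given in the closing section. The SE of a log2 difference is its size divided by the square root of edgeR's F statistic. Intervals other than this SE were not computed.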

Additional observations from a re-analysis of the deposited data

Results flagged for a closer look

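Single libraries stood far from the rest of their group in 12 of 110 sets of 4 or 5 libraries, by Dixon's criterion, which chance meets in about 1 in 20. In B cells *Nfkb2* was at 210 CPM in Eµ-PRMT5/TCL1 spleen 4, against 51.0 to 65.8 CPM in the others. In T cells *Rel* was at 161 CPM in Eµ-PRMT5 spleen 1 (others 41.8 to 69.7 CPM) and *Bcl3* at 174 CPM in Eµ-PRMT5/TCL1 spleen 4 (others 48.8 to 65.5 CPM). Eµ-PRMT5/TCL1 lymph node 1, which held 67 T cells, was low there for *Relb* at 131 CPM (others 181 to 184 CPM) and for *Nfkbia* at 436 CPM (others 740 to 781 CPM).

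In myeloid cells Eµ-PRMT5 spleen 5, which held 45 of them, was high for *Nfkb1* at 132 CPM (others 41.0 to 67.1 CPM), for *Rel* at 196 CPM (others 50.1 to 81.3 CPM), for *Nfkbid* at 226 CPM (others 42.6 to 70.3 CPM) and for *Traf1* at 181 CPM (others 35.9 to 75.8 CPM). *Nfkbia* was at 1256 CPM in Eµ-PRMT5 spleen 4 (others 443 to 618 CPM) and at 1900 CPM in Eµ-PRMT5/TCL1 spleen 4 (others 573 to 673 CPM). *Nfkbid* was at 167 CPM in Eµ-PRMT5/TCL1 spleen 4 (others 34.7 to 52.8 CPM).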

How the results depend on the processing

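The alternatives were DESeq2, no filter on low counts, doublets kept, 500 UMIs as the limit for cells, stricter *Cd79a* and *Cd79b*, no immunoglobulin genes in library sizes, *Xist* as a term, blocks added or dropped, and each library or mouse left out. Added after seeing the data were no *Jchain* limit, *Tyrobp* and *Fcer1g* under 2 UMIs, UMIs per B cell as a covariate, and class comparisons without Eµ-PRMT5 spleen 4. In T and myeloid cells only DESeq2, the changed blocks and left-out libraries or mice were run between genotypes and tissues. Myeloid cells were also fitted without cells rich in *S100a8* and *S100a9*. Class comparisons had DESeq2, no library block, no filter on low counts, doublets kept and the fit without those myeloid cells. No difference of a named member changed sign in the settings run. The median over members did in 15 settings over 7 comparisons, whose medians with all libraries lay between -0.10 and 0.31. In B cells of Eµ-PRMT5 against Eµ-TCL1 spleens the members called were 1 with DESeq2 (*Rel*), and 0 to 1 with libraries left out (1, *Tnfaip3*, without Eµ-PRMT5 spleen 4). The replicate number as a block left 0 called, with a median over members of 0.73, and 40 genes in all. Same-numbered libraries of one tissue correlated in 6 of 15 pairs (r over 0.1, range -0.15 to 0.30). Differently numbered libraries were not set beside them, so that whether the numbers mark libraries that go together was not settled. In myeloid cells of lymph node against spleen in Eµ-PRMT5/TCL1 mice, 0 to 1 members were called with mice left out (1, *Nfkbie*, 1.09, adjusted p = 0.0367, without mouse 3, where 221 of 5212 genes were called). In T cells the median over members for that contrast ran from -0.13 to 0.54, the highest without mouse 4, against 0.11 with all mice. Without the mouse as a block the B-cell median in Eµ-PRMT5/TCL1 mice was 0.37. In B cells the number of all genes called ranged over 0 to 19, 0 to 105 and 0 to 62 in the comparisons of Eµ-PRMT5/TCL1 with Eµ-TCL1 spleens, with Eµ-PRMT5 spleens and in lymph nodes. It ranged up to 295 in T cells and 221 in myeloid cells between tissues of Eµ-PRMT5/TCL1 mice. Between classes the members called ranged over 8 to 9 (B against T cells), 4 to 8 (B against myeloid) and 6 to 7 (T against myeloid). Few myeloid cells limit the lymph nodes, and the cause of each change was not tested.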
